A study of Mus musculus with 198 samples.

Results

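Recombinant inbred (RI) mouse strains were divided by the signal of the Fcer1g probe in hippocampus, and every other probe of the array was compared between the strains with a high and those with a low signal. The threshold was 8.30 on the log2 scale, the midpoint of the 5th percentile (6.93) and the 95th percentile (9.67) over the 99 strains with a hippocampus array. A set of RI strains was kept when it had at least 4 strains on each side. The BXD set had 18 high and 12 low strains and the AXB/BXA set 16 and 11, whereas the BXH set had 8 and 3 and stayed out of the fit. The comparison thus holds 57 strains, 34 high and 23 low, with 1 array per strain and tissue, or 114 of the 198 arrays of the series. The hippocampus array of AXB19b/PgnJ was left out by rule, and that strain enters neither tissue.

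The arrays belong to the Hybrid Mouse Diversity Panel, which joins classical inbred strains with RI strains. Total RNA of whole hippocampus and whole striatum of male mice was read on MouseRef-8 arrays of Illumina, which hold 25697 probes. Mice of the panel were young adults that had gone through fear conditioning and memory tests. High and low strains share this history, and no allele was engineered. BXD strains descend from B6 (C57BL/6J) and DBA (DBA/2J), AXB/BXA strains from B6 and AJ (A/J), and BXH strains from B6 and C3H (C3H/HeJ). Each RI strain is homozygous for 1 parent's allele at nearly every locus and carries long unbroken blocks of each parent's chromosomes, so the high and low strains differ in a stretch of chromosome and not in 1 gene alone. Genotypes were not used here. Spread and error below are those among strains of a side, since no strain name was repeated. By their names AXB19/PgnJ and AXB19a/PgnJ are substrains of 1 line, as are BXD24a/TyJ and BXD24b/TyJ. Each of them counts as a strain in the fit.

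Fcer1g encodes the gamma chain shared by the high-affinity IgE receptor and several IgG receptors. The chain carries the signalling motif that recruits the kinase Syk once a receptor binds antibody, and in the brain it is made mainly by microglia. Its gene lies on distal chromosome 1 beside those of the IgG receptors Fcgr2b, Fcgr3 and Fcgr4, in a region known to hold many loci for behaviour and for gene expression in crosses of B6 with DBA. A gene near a locus can differ between strains through its own regulatory sequence (in cis). The signal of an unlinked gene can differ, among other ways, through a product that reaches it (in trans). It can also differ through a linked block elsewhere that happens to go with the locus. For whole tissue, more cells of a type and more RNA per cell cannot be told apart.

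Strains were selected on the hippocampus signal of Fcer1g, so its values are given as a description without a test. In the 34 high strains it ranged from 8.54 to 9.91 with a median of 9.35 on the log2 scale, and in the 23 low strains from 6.87 to 8.03 with a median of 7.06. The probe was detected in hippocampus (detection p under 0.01) in all 34 high strains and in 1 of the 23 low strains, so the low signal is that of the background. Striatum arrays, which had no part in the choice, gave 8.63 to 10.04 (median 9.59) in the same high strains and 6.89 to 7.28 (median 7.12) in the same low strains, and none of the 23 low strains was detected there. All 57 strains were on the same side in both tissues. The B6 array stood with the high strains (9.55 in hippocampus, 9.75 in striatum). DBA (7.25 and 7.08), AJ (7.15 and 6.93) and C3H (7.16 and 7.14) were low. The 8 high BXH strains, outside the fit, had 9.41 to 9.74 in hippocampus and the 3 low ones 6.80 to 7.13.

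**Figure D1:**
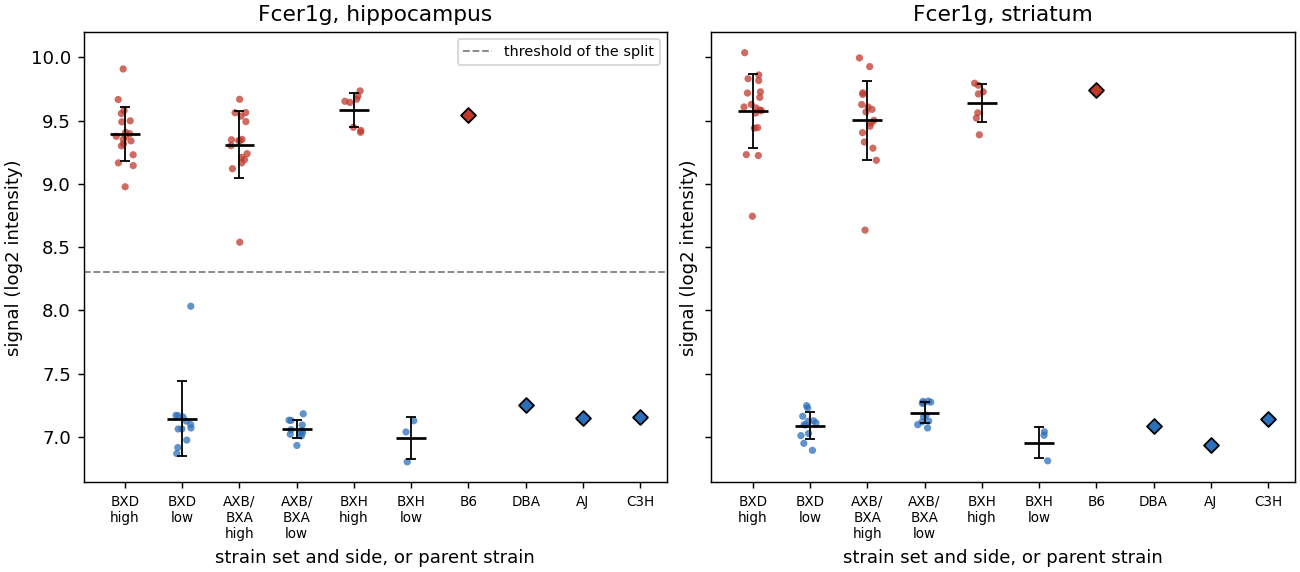
Fcer1g signal (log2 intensity) of each strain by RI set and side, in hippocampus and striatum. Each point is a strain (red high, blue low), black bars are mean and SD, diamonds are the single parent arrays, and the dashed line is the threshold of 8.30. B6 stands with the high strains, and DBA, AJ and C3H stand with the low strains.

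The sequence upstream of Fcer1g is shown because this gene defines the split. It is the strand of the gene, from RefSeq (GRCm38.p6), chr1:171234350-171234499 on the minus strand, the 150 bases before the annotated start. Capitals mark AGGAAG, a string that holds the GGAA core bound by Ets family factors such as PU.1. AGGAAG was looked for on both strands and occurs in the same window of 19.7% of 32851 RefSeq promoters. The match is a description and not a known site, and the reference shows the B6 sequence only.
Fcer1g: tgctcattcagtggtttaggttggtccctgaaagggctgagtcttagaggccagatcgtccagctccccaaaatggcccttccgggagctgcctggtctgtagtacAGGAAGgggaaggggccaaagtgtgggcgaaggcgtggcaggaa

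In all, 3 strains stood between the groups or changed place between tissues. AXB19a/PgnJ was the high strain nearest to the threshold, at 8.54 in hippocampus and 8.63 in striatum. AXB19/PgnJ, of the same line by name, was a low strain, at 7.09 and 7.27. BXD24a/TyJ was the low strain nearest to the threshold, at 8.03 in hippocampus, but had 6.89 in striatum. BXD42/TyJ had 9.23 in hippocampus and 8.74 in striatum. Positions were read on a scale where 0 is the median of the low and 1 the median of the high strains. The median was taken over the 10 distal chromosome 1 probes with the smallest p in each tissue, both Pex19 probes among them. These probes were chosen on the same strains, so a division of the sides is built in. AXB19a/PgnJ was at 0.54 in hippocampus and 0.63 in striatum. BXD42/TyJ was at 0.98 in hippocampus but at 0.28 in striatum, and BXD24a/TyJ at 0.18 and -0.17. The other high strains lay between 0.79 and 1.17 in hippocampus and between 0.77 and 1.13 in striatum, and the other low strains no higher than 0.34 and 0.37. AXB19a/PgnJ was thus intermediate in both tissues, and BXD42/TyJ only in striatum, at these probes. The reason was not tested. AXB19b/PgnJ, which was left out, had 7.77 in hippocampus and 7.06 in striatum. A separate doubt, from an earlier reading of these data in which arrays of different names were close to each other, concerns AXB15/PgnJ, AXB19/PgnJ, BXA1/PgnJ and BXA8/PgnJ.

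High and low strains differed at 103 of 12228 probes tested in hippocampus, 0.842% (limma, Benjamini-Hochberg adjusted p under 0.05, set as covariate). Of these, 68 were higher in high strains (0.556% of the probes tested) and 35 lower (0.286%). In striatum 111 of 12196 probes differed, 0.91%, of which 61 were higher (0.5%) and 50 lower (0.41%). Without AXB19a/PgnJ, BXD24a/TyJ and BXD42/TyJ the counts were 111 and 96, and 96 of the 103 and 96 of the 111 probes were called again. Without the 4 strains of doubtful name they were 104 and 79, with 88 of the 103 and 76 of the 111 called again. Without the substrains AXB19a/PgnJ and BXD24b/TyJ, 96 of the 103 and 93 of the 111 were called again.

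Calls were concentrated around Fcer1g. Distal chromosome 1, taken as the array genes from 150 before Fcer1g to the end of the chromosome, had 30 calls among 211 probes in hippocampus (14.2%, 21 higher and 9 lower) and 30 among 202 in striatum (14.9%, 20 and 10). The rest of chromosome 1 had 3 calls among 383 probes (0.783%) and 3 among 380 (0.789%). Probes of other chromosomes, called unlinked here, had 63 calls among 10933 in hippocampus (0.576%, 43 higher and 20 lower) and 68 among 10911 in striatum (0.623%, 37 higher and 31 lower). Unplaced probes had 7 calls among 701 and 10 among 703. The median size of a called difference was 0.39 and 0.33 log2 on distal chromosome 1, against 0.18 and 0.19 for unlinked probes. Without the 4 strains of doubtful name, the unlinked count in striatum was 45 in place of 68.

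The share of calls followed the order of genes and was higher after Fcer1g, towards the end of the chromosome. In hippocampus 23.1% of 13 probes within 25 array genes before Fcer1g were called, 55.6% of 18 within 25 after it, and 62.5% of 8 from 26 to 50 after it. Beyond this the share was 15.6% of 32 probes up to 100 genes after it and 7.02% of 57 in the last stretch. Striatum had 26.7% of 15, 44.4% of 18, 66.7% of 9, 10.7% of 28 and 6.9% of 58 probes in the same stretches. The bins nearest to Fcer1g hold under 20 probes each.

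**Figure D2:**
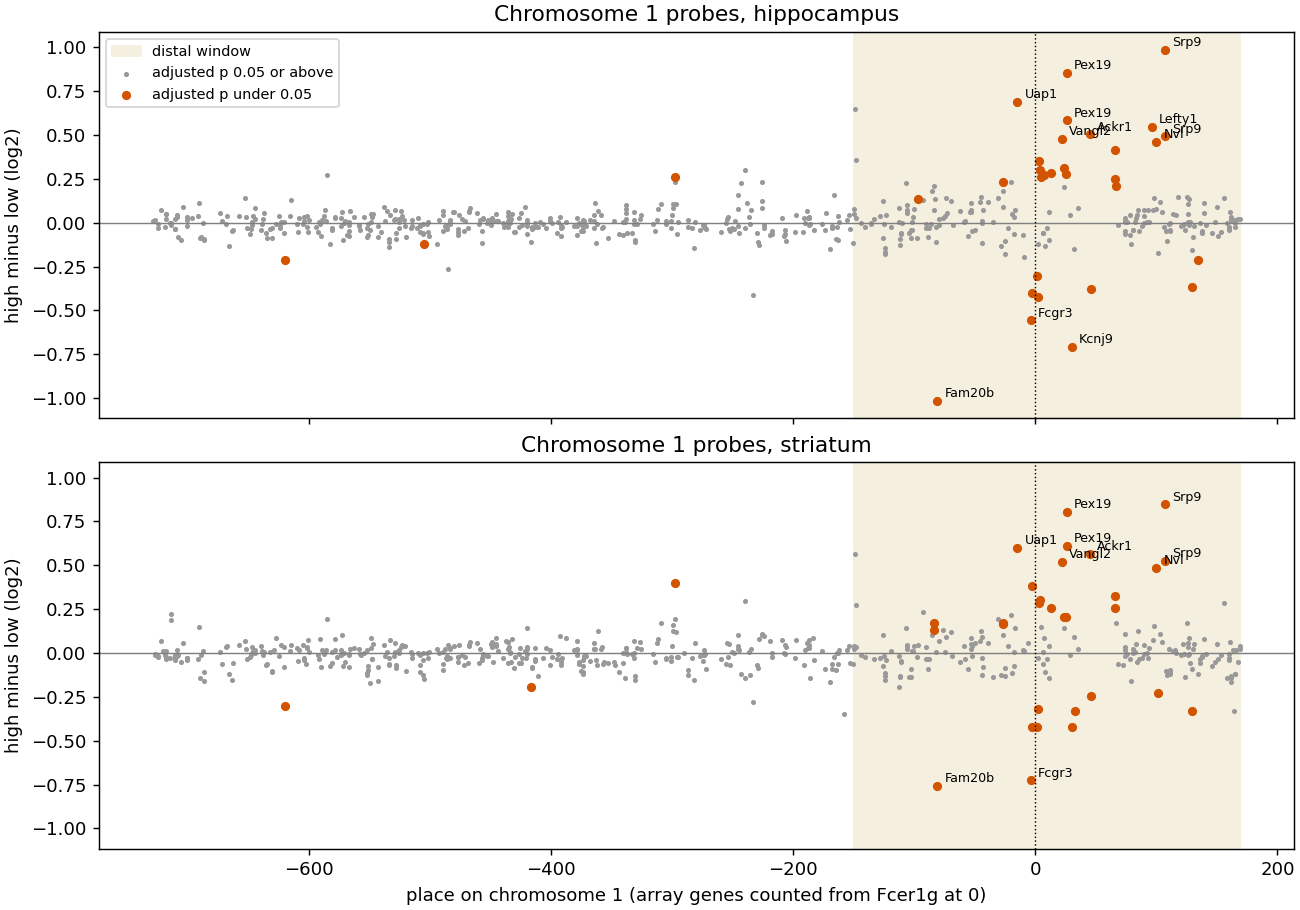
High-minus-low difference (log2) of every tested chromosome 1 probe against its place, in array genes counted from Fcer1g at 0. Orange points passed an adjusted p of 0.05 and the shaded stretch is the distal window. Calls gather from shortly before Fcer1g to about 50 genes after it, with 30 of 211 distal probes called in hippocampus and 30 of 202 in striatum.

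The nearest genes did not all go the way of Fcer1g. Fcgr3, the low-affinity IgG receptor whose surface level and signal depend on the gamma chain, was lower in the high strains. Its hippocampus signal was 7.81 to 8.65 (median 8.21) in high and 8.42 to 9.31 (median 8.85) in low strains, and its striatum signal 7.92 to 8.92 (median 8.25) and 8.33 to 9.39 (median 9.05). The ranges overlapped in both tissues. The difference was -0.56 ± 0.05 (SE) log2 in hippocampus (limma, adjusted p = 3.21e-11), or 1.47-fold, and -0.72 ± 0.06 in striatum (limma, adjusted p = 3.92e-15), or 1.65-fold. It was -0.62 and -0.79 within BXD, -0.48 and -0.65 within AXB/BXA, and -0.69 and -0.77 in BXH. Probes of relatives were near background: Fcgr4 and Fcrla were not tested in either tissue, and of 3 Fcgr2b probes 1 was tested, in striatum, where its medians were 7.63 and 7.57.

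Sdhc, the membrane anchor of succinate dehydrogenase, lies 3 array genes before Fcer1g, and its probes went opposite ways. The brighter probe was lower in high strains by -0.40 ± 0.07 log2 in hippocampus (limma, adjusted p = 0.000115) and by -0.42 ± 0.07 in striatum (limma, adjusted p = 2.78e-05). The dimmer probe was tested in striatum only and was higher there by 0.38 ± 0.04 (limma, adjusted p = 2.14e-10). Its medians were 8.01 in high and 7.60 in low strains, and it was detected in 34 and 8 of them. The total level of the gene is thus not settled by these probes. Nr1i3 and Apoa2, between Sdhc and Fcer1g, were not tested: Nr1i3 was detected in none of the strains, and Apoa2 in 4 of 34 high and 0 of 23 low strains in hippocampus.

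On the other side of Fcer1g, B4galt3, a galactosyltransferase of glycan synthesis, was lower at its brighter probe by -0.42 ± 0.04 and -0.32 ± 0.04 (limma, adjusted p = 1.51e-10 and 5.12e-08), whereas its second probe, at -0.12 and -0.03, did not pass (adjusted p = 0.417 and 0.939). Ppox, the mitochondrial oxidase of the next to last step of haem synthesis, was higher by 0.35 ± 0.03 and 0.29 ± 0.05 (limma, adjusted p = 3.21e-11 and 0.000175). Usp21, a deubiquitinase, was higher by 0.30 in both tissues (limma, adjusted p = 2.27e-09 and 2.56e-07). Ufc1, the conjugating enzyme of the ubiquitin-like UFM1, was higher in hippocampus by 0.26 ± 0.04 (limma, adjusted p = 7.31e-05) and had 0.15 in striatum (adjusted p = 0.0814).

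Array probes are short, and a base that differs between the parents under a probe changes its signal as a change in RNA would. At the genes of this region these cannot be told apart here, since probe sequences and strain variants were not used.

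Pex19, the chaperone and import receptor for peroxisomal membrane proteins, separated the strains most cleanly in hippocampus. Its dimmer probe ranged from 8.12 to 9.16 (median 8.42) in high and from 7.25 to 7.95 (median 7.58) in low strains in hippocampus, and its brighter probe from 10.73 to 11.29 (median 11.05) and from 10.20 to 10.65 (median 10.46). The groups did not overlap at either probe. These were the only 2 probes of 12228 without overlap in hippocampus (0.0164%), and striatum had 0 such probes among 12196 (0%). The differences were 0.86 ± 0.05 log2 (limma, adjusted p = 3.59e-20), or 1.81-fold, and 0.58 ± 0.03 (adjusted p = 7.73e-22). In striatum they were 0.80 ± 0.06 and 0.61 ± 0.04 (limma, adjusted p = 3.33e-16 and 1.73e-16). The difference at the dimmer probe was close to alike in each set, at 0.86 in BXD, 0.86 in AXB/BXA and 0.83 in BXH in hippocampus. This probe was detected in 11 of the 23 low strains, so its low signals are near background.

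Kcnj9, which encodes the subunit GIRK3 of G protein-gated potassium channels, had the smallest p in hippocampus of the distal genes that fell. In hippocampus it ranged from 7.49 to 8.06 (median 7.70) in high and from 8.01 to 8.69 (median 8.45) in low strains, and only the ends of the ranges met. The difference was -0.71 ± 0.04 log2 (limma, adjusted p = 2.34e-20). In striatum it was -0.42 ± 0.04 (limma, adjusted p = 7.69e-13), where the probe was detected in 2 of 34 high and 18 of 23 low strains, so that the high strains had a background signal. The parents were B6 at 7.79 and C3H at 7.72 in hippocampus, whereas the 3 low BXH strains had 8.21 to 8.67. The C3H array was thus near B6 at a probe where BXH strains were divided.

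Other distal genes past the threshold in both tissues covered many functions. Ackr1, an atypical receptor that binds chemokines without signalling, was higher by 0.50 ± 0.05 and 0.57 ± 0.05 log2 (limma, adjusted p = 1.93e-11 and 3.63e-14), and Vangl2, a core protein of planar cell polarity, by 0.48 ± 0.05 and 0.52 ± 0.05 (limma, adjusted p = 9.21e-11 and 4.59e-11). Nvl, an ATPase of ribosome assembly, was higher by 0.46 ± 0.05 and 0.48 ± 0.06 (limma, adjusted p = 1.51e-10 and 9.97e-09), but had 0.00 and -0.08 in BXH, and its second probe, at 0.08 in hippocampus, did not pass (adjusted p = 0.711). Ncstn, the nicastrin subunit of gamma-secretase, and Copa, the alpha subunit of the COPI vesicle coat, were higher by 0.31 and 0.28 in hippocampus and by 0.21 and 0.20 in striatum. The second Ncstn probe, at 0.20 and 0.14, did not pass (limma, adjusted p = 0.088 and 0.116). Fmn2, a formin that nucleates actin, was higher at both of its probes, by 0.42 and 0.25 in hippocampus and by 0.33 and 0.25 in striatum. Cadm3, an adhesion molecule of neurons, was lower by -0.38 and -0.25. Igsf9, an adhesion molecule of the immunoglobulin superfamily, was tested in striatum only and was lower there by -0.33 ± 0.06 (limma, adjusted p = 0.000615). Within the sets it was -0.11 in BXD and -0.57 in AXB/BXA, and the difference between sets did not pass (limma, adjusted p = 0.143).

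Some large differences farther from Fcer1g came with wide overlap. Fam20b, a kinase that acts on the linker sugar of proteoglycans, ranged from 8.40 to 11.38 (median 8.96) in high and from 8.47 to 11.53 (median 10.55) in low strains in hippocampus. Its difference was -1.02 ± 0.24 log2 (limma, adjusted p = 0.0114) and -0.76 ± 0.19 in striatum (limma, adjusted p = 0.0348), and its signal spanned low and high values within each side of both sets. Fam20b lies 81 array genes before Fcer1g. Srp9, a subunit of the signal recognition particle 107 array genes after it, was higher by 0.99 ± 0.17 and 0.49 ± 0.08 at its probes in hippocampus and by 0.85 ± 0.15 and 0.53 ± 0.09 in striatum. The dimmer probe differed by 0.40 within BXD and 1.63 within AXB/BXA in hippocampus, and by 0.01 in BXH, but the difference between BXD and AXB/BXA did not pass (limma, adjusted p = 0.201).

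The difference between high and low strains itself differed between BXD and AXB/BXA at 3 of 12228 probes in hippocampus (0.0245%) and at 2 of 12196 in striatum (0.0164%), all on distal chromosome 1. Adamts4, a protease that cleaves aggrecan-type proteoglycans and the next array gene after Fcer1g, was lower in high BXD strains, with 7.84 to 8.51 against 8.44 to 9.07 in hippocampus. In AXB/BXA the sides overlapped almost wholly, with 7.66 to 8.47 against 7.67 to 8.40. The differences were -0.66 in BXD, 0.09 in AXB/BXA and -0.67 in BXH (adjusted p of the difference between BXD and AXB/BXA = 7.06e-05), and -0.82, 0.02 and -0.84 in striatum (adjusted p = 7.82e-05). The parents followed the sets in hippocampus: B6 had 7.88 and AJ 8.09, against 8.47 in DBA and 9.34 in C3H.

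Uap1, which makes the sugar donor UDP-N-acetylglucosamine, did the opposite. Its hippocampus medians were 10.11 on both sides of BXD, but 10.25 in high and 8.40 in low AXB/BXA strains. The AXB/BXA ranges still overlapped almost wholly, with 8.11 to 10.44 in high and 8.05 to 10.37 in low strains. Striatum had 8.05 to 10.21 and 7.82 to 10.08. The differences were 0.03 in BXD, 1.42 in AXB/BXA and 1.83 in BXH (adjusted p of the difference between BXD and AXB/BXA = 0.00112), and -0.08, 1.35 and 1.96 in striatum (adjusted p = 0.000691). B6 at 10.27 and DBA at 10.09 were close, and AJ at 8.26 and C3H at 8.33 were low. Lefty1, an inhibitor of Nodal signalling, differed in AXB/BXA strains alone, with hippocampus medians of 8.81 and 7.23, against 8.84 and 8.91 in BXD and 8.83 and 8.81 in BXH. The AXB/BXA sides overlapped, with 7.25 to 9.10 in high and 7.09 to 7.46 in low strains. The difference was 1.31 in AXB/BXA and -0.14 in BXD (adjusted p of the difference between sets = 7.07e-06). The probe was detected in 0 of the 11 low and 13 of the 16 high AXB/BXA strains, and in all BXD strains. The signal of the low AXB/BXA strains is thus that of the background. AJ was low at 7.26, and B6, DBA and C3H had 8.81, 8.56 and 8.96. The pooled differences of Adamts4, Uap1 and Lefty1 thus come from 1 of the fitted sets each.

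**Figure D3:**
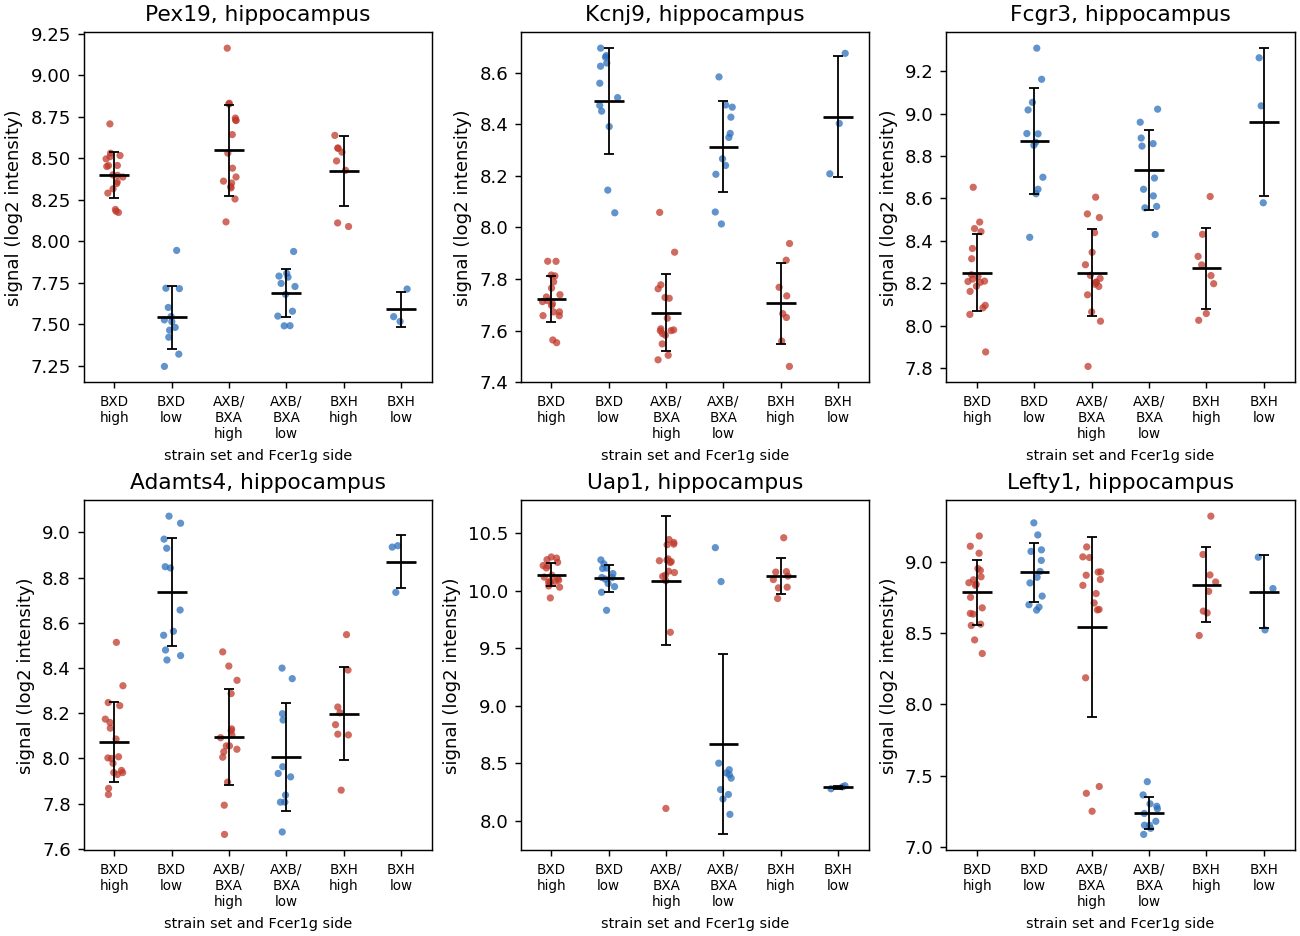
Hippocampus signal (log2 intensity) of 6 distal chromosome 1 genes by RI set and Fcer1g side. Points are strains (red high, blue low), and black bars are mean and SD. Pex19, shown by its dimmer probe, Kcnj9 and Fcgr3 differ in each set, whereas Adamts4 differs in BXD and BXH, Uap1 in AXB/BXA and BXH, and Lefty1 in AXB/BXA.

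On the rest of chromosome 1, far from Fcer1g in the gene order, Coa5, an assembly factor of cytochrome c oxidase, was lower in both tissues, by -0.21 ± 0.06 and -0.30 ± 0.05 log2 (limma, adjusted p = 0.0483 and 2.31e-05). Bok, a pore-forming member of the BCL-2 family, was called at a different probe in each tissue, at 0.26 ± 0.07 and 0.40 ± 0.10 (limma, adjusted p = 0.0333 and 0.0269). Mdh1b, named for its likeness to malate dehydrogenase, was lower in hippocampus by -0.12, and Sgpp2, a phosphatase of sphingosine 1-phosphate, in striatum by -0.19.

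Unlinked differences were small, with absolute values between 0.11 and 0.45 log2 in hippocampus and between 0.12 and 0.45 in striatum. No unlinked probe separated the groups without overlap. Of 62 and 67 unlinked calls tested in both tissues, 25 were called in both, which is 40.3% of the hippocampus and 37.3% of the striatum calls, all with the same sign. On distal chromosome 1 the shared calls were 24 of 29 (82.8%) and 24 of 28 (85.7%). The same strains were used in both tissues, and 69.6% of all 11659 probes tested in both had the same sign.

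Several splicing factors were among the unlinked calls. Snrpd1, a core Sm protein of the spliceosome, had the smallest p among them in hippocampus. At 1 probe its signal was 10.74 to 11.72 (median 11.42) in high and 10.70 to 11.38 (median 11.05) in low strains. The differences at its probes were 0.34 ± 0.05 and 0.28 ± 0.05 log2 in hippocampus (limma, adjusted p = 4.95e-07 and 0.000251) and 0.30 ± 0.06 and 0.31 ± 0.05 in striatum (limma, adjusted p = 0.000805 and 3.9e-05). At the first probe it was 0.30 within BXD, 0.39 within AXB/BXA and 0.26 in BXH. Snrpd3, a second Sm protein, was higher in hippocampus by 0.17, and Snrpc of the U1 particle by 0.17 and 0.21 in the tissues. Of the splicing regulators, Srsf6 was higher by 0.19 and 0.21, and Srsf3 by 0.14 and 0.15 at 1 probe. The second Srsf3 probe, at 0.15 in each tissue, was called in hippocampus only. Over the spliceosomal Sm and U1 proteins, a list drawn up after these values were seen, 4 of 11 probes were higher and 0 lower in hippocampus (median 0.12), and 3 of 11 and 0 in striatum (median 0.04). The SR factors had 3 of 13 and 2 of 14 probes higher, and 0 lower in either tissue. Over all probes tested 0.556% and 0.5% were called higher, and the medians were -0.000898 and -0.00395.

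Copg1, the gamma subunit of the COPI coat that carries proteins from Golgi to endoplasmic reticulum, had the largest fall among unlinked probes in hippocampus. At this probe its signal was 10.38 to 11.02 (median 10.79) in high and 10.73 to 11.42 (median 11.12) in low strains in hippocampus. Of its 4 probes 2 were called, at -0.31 ± 0.04 and -0.30 ± 0.05 in hippocampus (limma, adjusted p = 5.91e-07 and 1.08e-05) and at -0.24 and -0.23 in striatum (limma, adjusted p = 0.00308 and 0.00682). The other probes did not pass and went opposite ways, with -0.18 and 0.08 in hippocampus (limma, adjusted p = 0.279 and 0.743) and -0.18 and 0.12 in striatum (limma, adjusted p = 0.393 and 0.336). The total level of the gene is thus not settled by these probes. The partner subunit Copa, on distal chromosome 1, was higher as given above. Of 16 COPI probes tested these were the only calls, 1 higher and 2 lower in each tissue, where 0.556% and 0.286% of all hippocampus probes and 0.5% and 0.41% of all striatum probes were called higher and lower.

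Some genes of the Bex and Tceal family on the X chromosome, small proteins tied to transcription and to neurotrophin signalling, were among the unlinked calls. Bex4 ranged from 10.19 to 11.08 (median 10.77) in high and from 9.91 to 10.83 (median 10.41) in low strains in hippocampus. The difference was 0.33 ± 0.06 there and 0.35 ± 0.05 in striatum (limma, adjusted p = 0.000202 and 1.53e-05), and 0.27 and 0.22 at its second probe. In BXH it was 0.06 and 0.27 at the first probe. Bex2 was called at 3 probes in hippocampus, at 0.24, 0.16 and 0.21, and Tceal8 was higher by 0.23 and 0.22. Bex1 was called in striatum only, at 0.27 ± 0.04 and 0.21 ± 0.04 at its probes (limma, adjusted p = 6.44e-06 and 0.000617). Tceal1, Tceal3, Tceal5, Tceal6 and Tceal9 were called in neither tissue, and Bex3 had -0.04 and -0.05 (limma, adjusted p = 0.923 and 0.68). Of 16 probes of this family, listed after the values were seen, 6 were called in hippocampus and 7 in striatum, all higher, and 15 of 16 had a positive difference in each tissue. Of all probes tested 0.556% were called higher and 49.4% were positive in hippocampus, and 0.5% and 46.9% in striatum. Probes of such near copies may cross-hybridize.

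**Figure D4:**
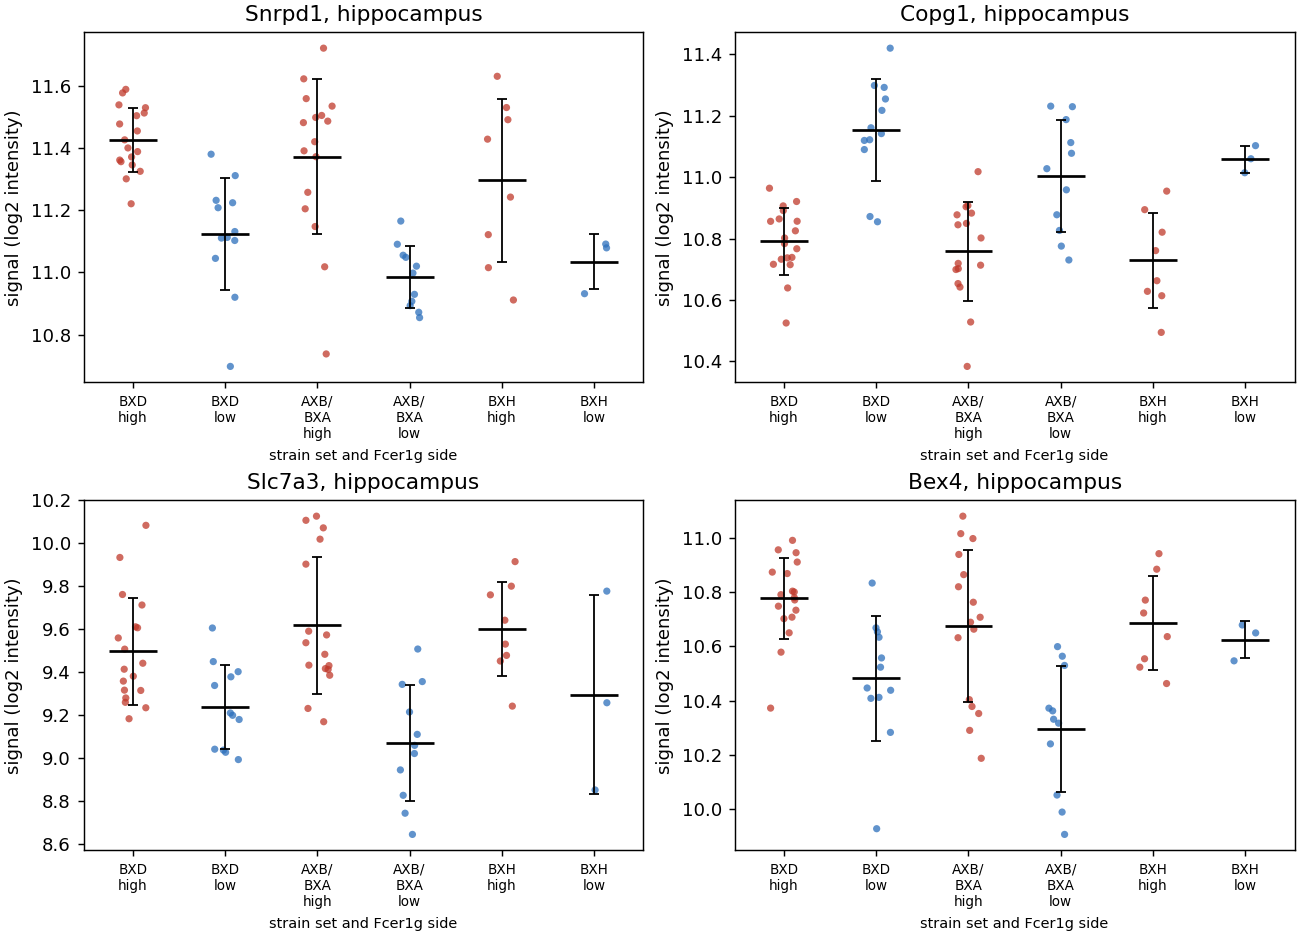
Hippocampus signal (log2 intensity) of 4 unlinked genes by RI set and Fcer1g side. Points are strains (red high, blue low), and black bars are mean and SD. Copg1, shown by 1 probe, is lower and Snrpd1, Slc7a3 and Bex4 are higher on the high side of BXD and AXB/BXA, with overlap in each, and Bex4 differs by 0.06 in BXH.

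Several genes of amino acid supply were higher in hippocampus. Slc7a3, a carrier of arginine and lysine, had 9.17 to 10.13 (median 9.46) in high and 8.65 to 9.61 (median 9.18) in low strains. Its difference was 0.40 ± 0.07 log2 in hippocampus and 0.39 ± 0.07 in striatum (limma, adjusted p = 0.00029 and 0.000309). Chac1, an enzyme that degrades glutathione and is a target of the stress factor ATF4, was higher in hippocampus by 0.38 ± 0.07 (limma, adjusted p = 0.000274), from medians of 10.18 and 9.76. Atf5, a transcription factor of the same response, was higher by 0.28 ± 0.06 (limma, adjusted p = 0.00291). Asns, which makes asparagine, was higher at 2 of its 3 probes, by 0.20 and 0.18, and had 0.12 at the third (limma, adjusted p = 0.844). Psat1, of serine synthesis, was higher by 0.17. Of the enzymes that load tRNA, Gars (glycine), Mars1 (methionine) and Nars (asparagine) were higher by 0.17, 0.16 and 0.14 (limma, adjusted p = 0.00291, 0.0299 and 0.0305), and the second probe of Mars1, at 0.10, did not pass (adjusted p = 0.15).

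In striatum the same tRNA enzymes had 0.09, 0.10 and 0.10 and Psat1 -0.02, none of which passed (limma, adjusted p = 0.388, 0.395, 0.35 and 0.936). Chac1 and Atf5 had 0.22 and 0.16 there and did not pass (limma, adjusted p = 0.222 and 0.1605). The Asns probes, in the order above, had 0.08, 0.11 and -0.03 (limma, adjusted p = 0.54, 0.29 and 0.954). Over all cytosolic aminoacyl-tRNA synthetases 3 of 26 probes were called in hippocampus, all higher (20 positive, median 0.08), beside 0.556% of all probes called higher and 49.4% positive. In striatum limma called 0 of 26, with 5 at an unadjusted p under 0.05, 18 positive (46.9% of all probes) and a median of 0.03. The mitochondrial enzymes had 0 of 14 in each tissue, with 2 and 3 at an unadjusted p under 0.05. Targets of ATF4, a list drawn up after these values were seen, had 6 of 27 probes higher and 0 lower in hippocampus (24 positive, median 0.08). This list had 1 of 27 higher in striatum, that of Slc7a3, where 0.5% of all probes were called higher. Of these 27 striatum probes 17 were positive, with a median of 0.03. In hippocampus 9 and in striatum 5 had an unadjusted p under 0.05. The difference between the tissues was tested per probe only, and did not pass for Psat1 (0.19, limma, adjusted p = 0.365).

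Promoters of the 3 unlinked genes called higher in hippocampus that hold the element TGATGNAAN, which ATF4 binds with a C/EBP partner, are shown as short stretches of the gene's strand around it, in capitals. The letters were looked for on both strands in the 250 bases before the annotated start (RefSeq, GRCm38.p6), and capitals that do not read TGATG hold the element on the other strand. The regions are chr6:7693210-7693252 (minus strand) for Asns, chr6:55037950-55037998 (plus) for Gars and chr2:119351028-119351076 (plus) for Chac1. The element occurs in 3.44% of 32851 promoters, and in at least 1 promoter of 3.89% of 27025 genes. Of 34 unlinked genes called higher in hippocampus 24 had a promoter entry and 3 held it, and of 16 called lower 11 had an entry and 1, Pacsin2, held it. A match is a description only.
Asns: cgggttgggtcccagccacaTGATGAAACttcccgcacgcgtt
Gars: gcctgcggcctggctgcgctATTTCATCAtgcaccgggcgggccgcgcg
Chac1: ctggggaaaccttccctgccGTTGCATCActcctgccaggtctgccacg

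A shared role of the further unlinked genes in hippocampus was not tested. Cort, the interneuron peptide cortistatin, had the largest difference, 0.45 ± 0.10 log2 at 1 probe and 0.41 ± 0.10 at the other (limma, adjusted p = 0.00642 and 0.0277). Its signal was 8.94 to 10.40 (median 9.76) in high and 8.14 to 9.82 (median 9.32) in low strains. Cox6a2, an isoform of a cytochrome c oxidase subunit, was higher by 0.43 ± 0.07 (limma, adjusted p = 0.000137). Cfl1, the actin-severing protein cofilin, was higher by 0.32 ± 0.09 (limma, adjusted p = 0.0491). Itpka, a kinase of inositol trisphosphate in dendritic spines, and Mkrn3, an imprinted zinc finger gene, were higher in both tissues, by 0.24 and 0.19 and by 0.21 and 0.25. Jpt1 was lower at both of its probes in both tissues, by -0.30 and -0.18 in hippocampus and by -0.35 and -0.21 in striatum.

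In striatum Krt9, a keratin, led with 0.45 ± 0.10 log2 (limma, adjusted p = 0.00341), from 8.72 to 10.29 (median 9.23) in high and from 8.14 to 9.49 (median 8.83) in low strains. It had 0.00 in hippocampus. Scarf2, a scavenger receptor family member, and Zfp941, a zinc finger gene, were higher by 0.38 ± 0.07 and 0.32 ± 0.07 (limma, adjusted p = 0.000631 and 0.0129). P2ry1, a receptor for ADP, was lower by -0.39 ± 0.10 and Myo5a, a myosin that carries organelles, by -0.33 ± 0.07 (limma, adjusted p = 0.0263 and 0.00562). Tle6, a corepressor of the Groucho family, was lower by -0.29 ± 0.06 (limma, adjusted p = 0.00125).

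**Figure D5:**
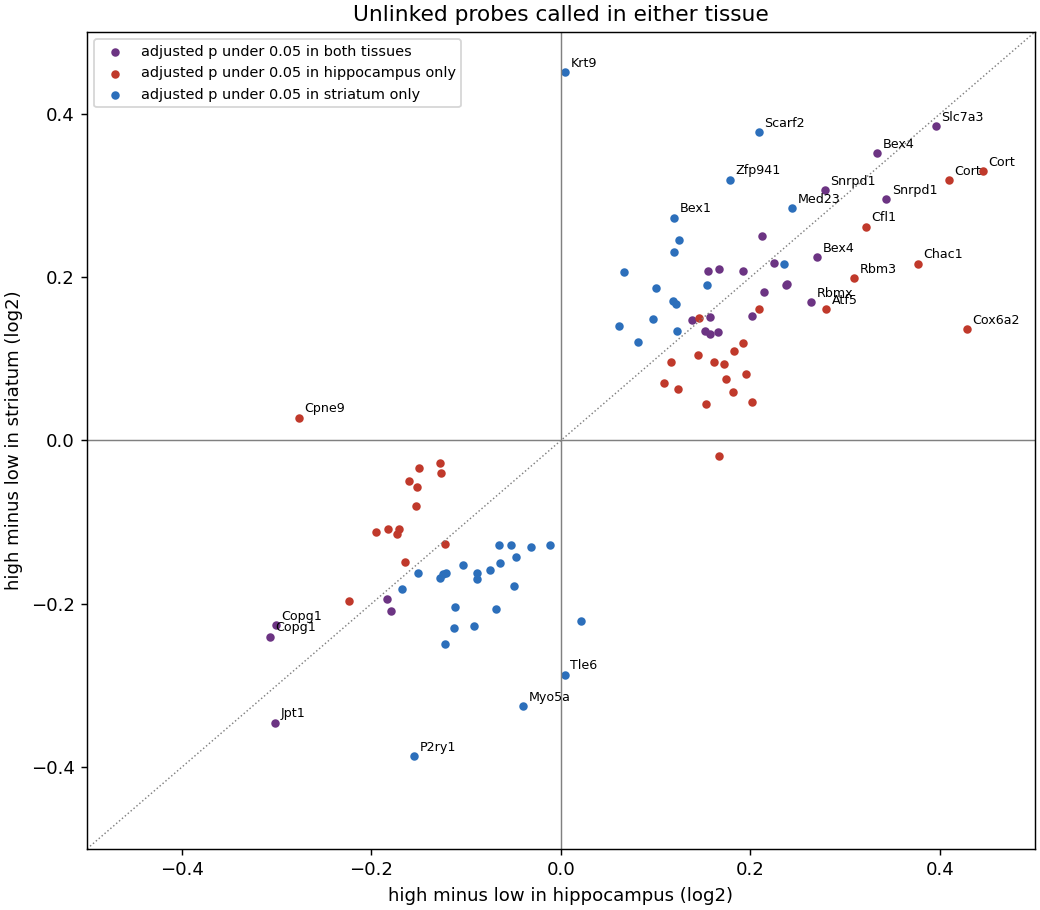
High-minus-low difference (log2) in hippocampus (horizontal) and striatum (vertical) for the 104 unlinked probes called in either tissue and tested in both. Purple points were called in both tissues (25), red in hippocampus only (37) and blue in striatum only (42), and the dotted line marks equal differences. Snrpd1, Slc7a3, Bex4 and Copg1 lie near the line, and Krt9 and Tle6 lie near 0 in hippocampus.

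The difference between high and low strains differed between the tissues at 2 of 11659 probes (0.0172%), both on distal chromosome 1. Slamf9, an immune receptor of the SLAM family, had -0.15 in hippocampus and 0.09 in striatum, neither past the threshold alone, and the tissues differed by -0.24 ± 0.04 log2 (limma, adjusted p = 0.0117). Kcnj9 was the other, at -0.28 ± 0.06 (limma, adjusted p = 0.0226), with the background signal in striatum noted above. No unlinked probe passed: Krt9 and Tle6 differed by -0.45 and 0.29 (limma, adjusted p = 0.2455 for both). An unlinked gene called in 1 tissue alone is thus not shown to differ between them.

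Each set was also fitted alone. BXD strains gave 60 calls in hippocampus (0.491% of probes tested) and 36 in striatum (0.295%), and AXB/BXA strains 31 (0.254%) and 21 (0.172%). Of the 31 unlinked BXD calls in hippocampus 28 had the same sign in AXB/BXA, against 45.5% of all unlinked probes, and 16 also had an unadjusted p under 0.05 there (51.6%, against 3.81%). In striatum 10 of 11 had the same sign (59.2% of all) and 9 of 11 also the lower p (81.8%, against 4.66%). In reverse, 8 of 9 unlinked AXB/BXA calls in hippocampus had the same sign in BXD, and 5 of 9 also the lower p (55.6%, against 4.1%). In striatum 4 of 4 had the same sign and 2 of 4 the lower p (50%, against 3.65%). On distal chromosome 1, 22 of 24 BXD calls in hippocampus and 18 of 20 in striatum had the same sign in AXB/BXA, against 54.5% and 63.4% of all distal probes. The sets share no strain but share B6 as a parent.

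BXH strains and the parents were outside the fit. In BXH, 57 of the 63 unlinked hippocampus calls and 63 of the 68 in striatum went the same way, against 57.1% and 60.3% of all unlinked probes, with 3 low strains behind each value. Of the 30 distal calls 28 did so in each tissue, against 60.2% and 65.8% of all distal probes. In single hippocampus arrays B6 minus DBA had the same sign as the high-minus-low difference at 51 of 63 unlinked calls. The sign was the same for B6 minus AJ at 51 and for B6 minus C3H at 50. Over all unlinked probes the signs matched at 49.7%, 51.1% and 50.4%. In striatum they matched at 53, 49 and 53 of 68 unlinked calls, against 50.7%, 55.3% and 47.1%. At distal calls in hippocampus the signs matched at 27 of 30 for DBA, 28 for AJ and 20 for C3H. Over all distal probes they matched at 64%, 71.6% and 54.5%. In striatum the counts were 30, 28 and 23, against 64.4%, 63.9% and 54.5%. The comparisons of parents share the B6 array and carry no test.

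Among receptors and signalling partners of the gamma chain, Fcgr3 was the only call of 13 probes tested in hippocampus (median 0.02, 2 at an unadjusted p under 0.05), where 0.286% of all probes were called lower. In striatum 2 of 15 were called (5 at an unadjusted p under 0.05, beside 0.41% of all probes called lower), both lower: Fcgr3 and Vav3, an exchange factor downstream of immune receptors, at -0.21 ± 0.05 (limma, adjusted p = 0.0131). Markers of microglia, the cells that make Fcer1g in brain, had 0 calls by limma among 22 probes in each tissue. In each tissue 3 had an unadjusted p under 0.05, and the medians were -0.01 and -0.03. Of the 22 probes 9 were positive in hippocampus and 8 in striatum, beside 49.4% and 46.9% of all probes. Their mean signal per strain ranged from 8.53 to 9.24 in high and from 8.64 to 8.97 in low strains in hippocampus, and from 8.66 to 9.10 and 8.74 to 9.13 in striatum. The markers at an unadjusted p under 0.05 were all lower in the high strains. In hippocampus they were the complement genes C1qb (-0.23) and C1qa (-0.12) and the calcium-binding Aif1 (-0.09), whose second probe had -0.000844. In striatum they were C1qb (-0.32), C1qc (-0.21) and C1qa (-0.11). The part of microglia markers in the other differences was not tested. Interferon-stimulated genes had 0 calls by limma among 22 and 23 probes, with 2 and 1 at an unadjusted p under 0.05. None of the 6 Ifi200 cluster genes on the array, which lie on distal chromosome 1 and differ between mouse strains, was detected often enough to be tested.

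Markers of other brain cells had 0 calls by limma in either tissue. In hippocampus all 14 oligodendrocyte probes had a positive difference (median 0.12, 3 at an unadjusted p under 0.05), as did all 10 choroid plexus probes (median 0.12, 0 at an unadjusted p under 0.05). In striatum 9 of the 14 and 9 of the 10 did, with medians of 0.02 and 0.05 and 0 at an unadjusted p under 0.05. Astrocyte probes were positive for 12 of 14 and 8 of 13, and blood probes for 0 of 3 in each tissue. Neuron probes were positive for 4 of 10 and 3 of 11, with medians of -0.01 and -0.06. Astrocyte and neuron lists each had 0 probes at an unadjusted p under 0.05 in hippocampus and 2 in striatum. Those in striatum were Glul (0.23), which lies on distal chromosome 1, Gja1 (-0.10) and the Gad1 probes (-0.15 and -0.16). The part of these markers in the unlinked differences was not tested. Respiratory complexes I and II had 1 call among 46 probes in hippocampus, Sdhc, lower. In striatum 1 was higher and 3 lower among 47, of which the Sdhc probes were 1 on each side, and Ndufc1 and Ndufa12, accessory subunits of complex I, were lower by -0.16 and -0.18 (limma, adjusted p = 0.0349 and 0.0449), the former at 1 of 2 probes.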

How the data were processed

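Each strain of the comparison had 1 Illumina MouseRef-8 v2.0 array per tissue. The authors' methods name rank invariant normalization in BeadStudio, and a series table of intensity on a linear scale was deposited. Tables with the intensity and the detection p-value of every probe were deposited too. Within a relative tolerance of 0.0001 the deposited hippocampus signal, which is labelled non-normalized, equals the series table for 100% of values. The striatum signal does so for 0.0763%, so the striatum tables differ. Whether the hippocampus values, which define the split, are normalized is thus not settled. The tissues may differ in processing, which also touches the comparison between them. That the series table is rank invariant normalized rests on the authors' methods and was not tested. It was used for both tissues, floored at 16 and converted to log2. No deposited value was on the log2 scale. No background was subtracted, so fold changes of dim probes are compressed.

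Probes were tested when detected (p under 0.01) in at least 20% of the arrays compared. Per array 35.2% to 49.5% (median 43.7%) of probes were detected in hippocampus and 40.9% to 46.4% (median 44.0%) in striatum, and the number of arrays limits the precision. Each probe was fitted with lmFit and eBayes of limma 3.58.1 (R 4.3.3) on side and RI set, with Benjamini-Hochberg adjustment over all probes of a tissue. The set-by-side interaction tested the difference between sets, and the strain's hippocampus minus striatum value the difference between tissues. Joins, positions and counts were computed in Python 3.11.15 (numpy 2.4.6, pandas 2.3.3). P-values are two-sided, measure the spread between strains and do not correct for relatedness. On simulated data with 12228 hippocampus probes, 82% of log2 changes of 0.25, 100% of 0.5 and 96% of -0.5 were recovered at this size. Calls fell on 0.0748% of unchanged probes, and on 12196 striatum probes the values were 76%, 98%, 98% and 0.0667%. The simulated noise was independent between probes and between strains. Real arrays hold linked probes and related strains, so these rates may not hold for them.

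Symbols came from the platform annotation (23978 probes) and 23959 probes were placed by gene order in RefSeq (GRCm38.p6), which was used for names, order and sequences. The members, lists and tests were chosen with earlier results of these data known. Genes are named by rule: per tissue the 10 distal and 10 unlinked calls with the largest difference and 3 on the rest of chromosome 1, the detected genes among 5 neighbours on each side, 4 members per list, and the 5 smallest p of each interaction. Other genes named, and the lists of ATF4 targets, splicing factors, Bex and Tceal genes and COPI subunits, were chosen after their values were seen. Alternatives were another background correction (normexp), quantile normalization, no filter, a floor of 1, no covariate, single sets, left-out strains, a trend in eBayes and other windows. Some results are not reported here.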

Additional observations from a re-analysis of the deposited data

Results flagged for a closer look

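At 5 tests in 3 genes the difference between high and low Fcer1g strains differed between the RI sets (limma interaction, adjusted p under 0.05). The AXB/BXA difference exceeded that of BXD by 0.75 log2 for Adamts4 in hippocampus and by 0.84 in striatum. It exceeded it by 1.39 and 1.43 for Uap1, and by 1.44 for Lefty1 in hippocampus. The probe of Lefty1 was detected in 0 of 11 low AXB/BXA strains, so its signal there is that of the background, and it was not tested in striatum.

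The hippocampus difference was below that of striatum by -0.28 log2 for Kcnj9 and by -0.24 for Slamf9, the 2 probes past the threshold for a difference between tissues. The groups compared hold more than 10 strains each, and no test for a single far strain was run on them.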

How the results depend on the processing

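Under the alternatives for signal, filter, floor, covariate, prior and left-out strains, counts of calls stayed within 1.5 times those given, except as follows. BXD strains alone gave 60 calls in hippocampus, 31 of them unlinked, and 36 in striatum, 11 of them unlinked. AXB/BXA strains alone gave 31, with 19 on distal chromosome 1 and 9 unlinked, and 21, with 13 and 4. These fits hold fewer strains. Without the 4 strains of doubtful name 45 unlinked probes were called in striatum. With normexp and quantile normalization 1 probe differed between tissues. Of the named probes' values under alternatives, 2117 kept direction and call, 127 lost the call, 8 gained it and 30 changed sign. The cause was not tested.

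In BXD alone the sign changed in hippocampus for Lefty1 (-0.14), Ttr (-0.0335), Otx2 (-0.031), Clic6 (-0.24), Kcne2 (-0.0787) and Tle6 (-0.0475), and for Nfib (0.20). In striatum it did for Uap1 (-0.0798), Ephx1 (-0.10), Aldh1l1 (-0.0232), Pecam1 (-0.0057) and Hbb-bt (0.0733). In AXB/BXA alone it changed in hippocampus for Adamts4 (0.0881), Kifap3 (-0.12), Hba-a1 (0.0091), Map2 (-0.10) and Krt9 (-0.0215), and in striatum for Adamts4 (0.0166), Cnih4 (0.0075), the unnamed probe ILMN_1224781 (0.0106), Folr1 (-0.0028) and Ppp1r1b (0.0319). Without the substrains AXB19a/PgnJ and BXD24b/TyJ, Tle6 in hippocampus had -0.0015. Without the 4 strains of doubtful name Nfib (0.0186) and Hba-a1 (0.0328) changed sign in hippocampus and Alas2 (0.0192) in striatum. With normexp Psat1 in striatum had 0.000554 and with quantile normalization 0.000417. With BXH strains added, an alternative chosen after seeing the data, Hbb-bt (0.013) and Alas2 (0.0138) changed sign in striatum. Leaving out AXB19a/PgnJ, BXD24a/TyJ and BXD42/TyJ was also chosen after seeing the data and turned no sign.

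No paired analysis was possible because high and low sides are different strains with 1 array per tissue, and replicate numbers belong to the B6Cc3 arrays alone, which are outside the comparison. The tissues were compared within strains. Signal near background limits the low side of Fcer1g, of the dimmer Pex19 probe and of Lefty1 in AXB/BXA, and the high side of Kcnj9 in striatum.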
